A study of Mus musculus with 2 samples.

Results

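The aryl hydrocarbon receptor (AHR) pathway was followed through 6 genes, Ahr, Arnt, Ahrr, Tiparp, Cyp1a1 and Cyp1b1, picked by name from the 17024 genes of the deposited table. All 6 had a row, and 4 of them reached 100 normalized counts in at least 1 library. RNA was sequenced from 2 sorted populations of C57BL/6 mice aged 6 to 8 weeks, both from the small intestine. The Th17 library came from GFP+ T cells of IL17A_IRES_GFP Knockin mice, in which GFP reports the interleukin 17A gene, and the ILC3 library from GFP+ group 3 innate lymphoid cells (ILC3s) of IL23R_GFP Knockin mice, in which GFP reports the interleukin 23 receptor gene. Mouse line, reporter and cell type therefore differ together, no treatment is named for either group, and how many animals were pooled is not stated in the labels. Each group held 1 library, so no difference below has a replicate check and no p-value was computed.

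AHR is a transcription factor that waits in the cytosol in a complex with HSP90 and the co-chaperone p23. When it binds a ligand, such as a dietary indole or a tryptophan product of microbes, it enters the nucleus, pairs with ARNT and binds a short DNA element upstream of its targets. Cyp1a1, Cyp1b1, Ahrr and Tiparp are known targets, and all of them feed back: the CYP1 enzymes break down ligands, AHRR competes with AHR, and TIPARP modifies AHR and lowers its activity. In the mouse intestine AHR is known to be needed for normal ILC3 numbers and for interleukin 22 production.

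The DNA element was looked for only in the 250 bases just upstream of the members. Elements further away, through which AHR and ARNT could also act, were not searched for. The RefSeq promoter table (GRCm38.p6, another build than the mm8 of the processing notes) held 5 of the 6 members, all but Ahr. The 250 bases before the transcription start are shown for the 4 targets, with the core of the element, GCGTG on either strand, in capitals (CACGC where it lies on the other strand). Ahrr lies at chr13:74292332-74292581 (minus strand), Tiparp at chr3:65528197-65528446 (plus), Cyp1b1 at chr17:79715062-79715311 (minus) and Cyp1a1 at chr9:57697363-57697612 (plus).
Ahrr: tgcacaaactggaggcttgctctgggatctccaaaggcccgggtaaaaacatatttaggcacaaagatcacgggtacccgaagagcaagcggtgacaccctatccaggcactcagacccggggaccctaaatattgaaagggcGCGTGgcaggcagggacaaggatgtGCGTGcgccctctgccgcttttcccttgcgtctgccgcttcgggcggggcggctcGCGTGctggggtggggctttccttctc
Tiparp: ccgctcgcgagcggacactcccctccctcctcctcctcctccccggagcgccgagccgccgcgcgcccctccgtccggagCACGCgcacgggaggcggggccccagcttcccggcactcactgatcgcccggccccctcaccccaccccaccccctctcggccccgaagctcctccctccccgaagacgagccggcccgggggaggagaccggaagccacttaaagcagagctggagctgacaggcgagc
Cyp1b1: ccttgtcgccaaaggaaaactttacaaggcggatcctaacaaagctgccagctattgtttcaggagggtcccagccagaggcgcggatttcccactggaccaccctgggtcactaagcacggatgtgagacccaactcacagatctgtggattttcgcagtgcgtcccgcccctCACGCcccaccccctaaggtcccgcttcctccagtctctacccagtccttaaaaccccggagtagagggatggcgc
Cyp1a1: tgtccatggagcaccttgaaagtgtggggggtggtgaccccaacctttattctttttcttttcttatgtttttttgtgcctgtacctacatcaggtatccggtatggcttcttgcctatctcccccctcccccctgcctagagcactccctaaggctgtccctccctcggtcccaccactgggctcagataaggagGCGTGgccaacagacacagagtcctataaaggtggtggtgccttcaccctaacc

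Ahrr held 3 cores, starting 107, 82 and 27 bases before the start, while Tiparp, Cyp1b1 and Cyp1a1 held 1 each. The promoter window of Arnt, the partner, also held 1. Of all 32851 promoter windows of this length in the table, 28.2% held the core at least once. The longer form TNGCGTG, which contains the core, was found in the Ahrr window alone among the 5 members and in 4.1% of all windows. These matches describe the letters of a short window and say nothing about binding in either cell type.

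Tiparp (2.67-fold) and Ahr (1.89-fold) were higher in the ILC3 library. Ahrr, Cyp1b1 and Arnt had ratios near 1 under the authors' scaling, and Cyp1a1 had no more than 15 reads in either library. A difference was called large at 4-fold or more, as an absolute log2 of at least 2 after adding 1 to each normalized count, and only where the higher library reached 100 normalized counts. Of the 4 members that reached 100, 0 had a large difference, beside 14.8% of the 10431 genes that reached 100 (6.4% higher in Th17 and 8.39% higher in ILC3). The 95% counting interval of the ratio left out equal values for 4 of the 6 members, beside 72.2% of all 17024 genes, so that count is near the background. Intervals are exact and cover counting error only; reads copied by PCR are not independent molecules.

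**Figure D1:**
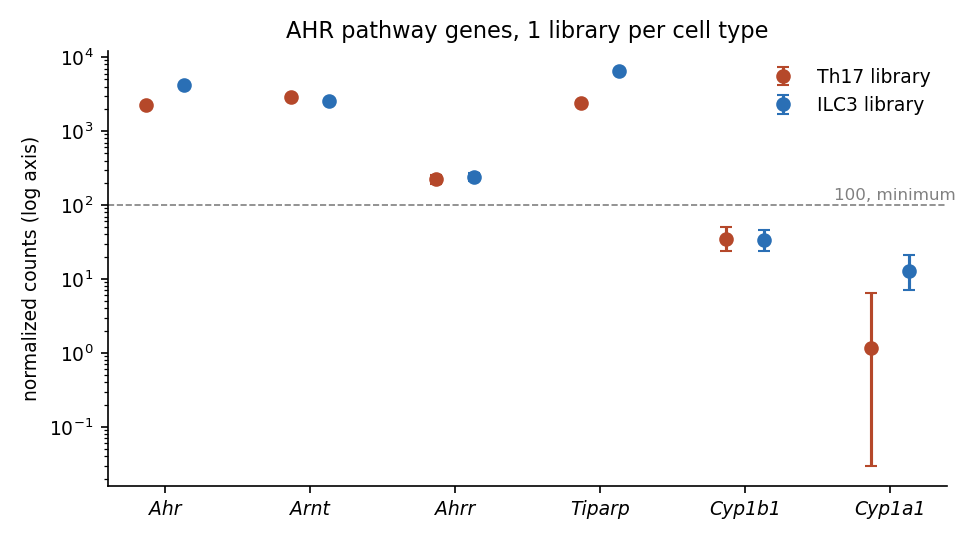
Normalized counts of the 6 members on a log axis, the Th17 library left of the ILC3 library for each gene; bars are exact 95% counting intervals and the dashed line marks 100 normalized counts. Ahr and Tiparp stand higher in ILC3, Ahrr and Cyp1b1 coincide within their intervals, and Cyp1a1 lies at 1.18 in Th17 against 12.8 in ILC3.

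Ahr, the ligand-binding receptor itself, had 2254 normalized counts (1917 reads) in the Th17 library and 4256 (5004 reads) in the ILC3 library. The ILC3 value was 1.89-fold the Th17 value (counting interval 1.79 to 1.99), short of 4-fold. Of the genes that reached 100, 17.3% had a ratio as far or further towards ILC3. The authors' deposited table gives Ahr an adjusted p of 1. An exon of Gm48236 overlaps an exon of Ahr on the opposite strand in the GENCODE M21 annotation. No label says whether the counting used strand, so reads of such a partner cannot be told apart.

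Arnt, the nuclear partner that AHR shares with the hypoxia factors, had 2928 normalized counts in Th17 against 2524 in ILC3. It was 1.16-fold higher in Th17 (1.10 to 1.22) under the authors' scaling, but at -0.24 on the log2 scale, towards ILC3, when the ratios were centred on constitutive gene families. The Ahr-to-Arnt ratio does not depend on how the libraries are scaled. As a ratio of normalized counts, not corrected for length, it was 0.77 in Th17 against 1.69 in ILC3, 2.19-fold higher in ILC3 (2.03 to 2.36). Measured against Arnt alone, receptor transcript was thus more abundant in the ILC3 library than in the Th17 library. Arnt2, given further below, was not part of this ratio. Markers of stroma, endothelium and epithelium, given beside Cyp1b1 and Cyp1a1, were also higher in ILC3, and their part in the Ahr difference was not tested.

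Tiparp, an ADP-ribosyltransferase that is both a target and an inhibitor of AHR, had the widest difference among the 4 members that reached 100. It had 2414 normalized counts (2053 reads) in Th17 against 6441 (7574 reads) in ILC3, 2.67-fold higher in ILC3 (2.54 to 2.80). On the log2 scale this was -1.42, and 11.7% of genes that reached 100 lay as far or further towards ILC3. At a 2-fold threshold Tiparp was the 1 member called, beside 16% of genes called higher in ILC3 by that rule. Its ratio to Ahr was 1.07 in Th17 against 1.51 in ILC3, a 1.41-fold difference (1.31 to 1.52). The authors' deposited table gives Tiparp a p-value of 0.143 and an adjusted p of 1.

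Tiparp also responds to signals other than AHR ligands, and immediate early genes, which are transcribed within minutes of stimulation or stress, stood higher in the same library. In a list of 11 such genes, added after seeing the data, every gene was higher in ILC3, and 8 differences were large. By the same rule, 8.39% of the 10431 genes tested had a large difference higher in ILC3. The list's median log2 ratio was -3.15, beside 0.10 over those 10431 genes. As the list was chosen with the values known, this contrast is not a test. The list's summed level was 162647 normalized counts in Th17 against 791149 in ILC3, with the highest ILC3 counts for Fosb, Junb and Nr4a1. The part of the listed genes in the Tiparp difference was not tested. 4931440P22Rik, which overlaps Tiparp on the opposite strand, had 74.1 in Th17 against 94.4 in ILC3, and its part in the Tiparp counts was not tested.

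Ahrr, the repressor that resembles AHR and competes with it for ARNT, had 223 normalized counts (190 reads) in Th17 against 238 (280 reads) in ILC3. The ratio of ILC3 to Th17 was 1.07, and its interval of 0.883 to 1.29 included equal values. A difference within that range was not detectable at this depth. With the ratios centred on constitutive gene families, the log2 ratio of Ahrr was -0.55, towards ILC3. Relative to Ahr, Ahrr was at 0.0991 in Th17 against 0.056 in ILC3, a ratio 1.77-fold higher in Th17 (1.45 to 2.15). Ahrr and Tiparp, both targets with the core element in the windows printed above, had ratios of ILC3 over Th17 of 1.07 for Ahrr and 2.67 for Tiparp, which differ by more than counting error, as their intervals do not overlap.

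Cyp1b1, a cytochrome P450 that oxidises AHR ligands and steroids, was low, at 35.3 normalized counts (30 reads) in Th17 against 34.02 (40 reads) in ILC3. The ratio of Th17 to ILC3 was 1.04 and its interval ran from 0.624 to 1.71. Fibroblasts are a known source of Cyp1b1, and 12 of 12 stroma and endothelium markers were higher in ILC3. Their summed levels were 2413 normalized counts in Th17 against 12735 in ILC3. Their median log2 ratio was -6.50, or -5.89 with genes at 0 set to a floor of 3 reads. Over the 13719 genes with a mean of at least 10 the median was 0.02. Pecam1, an adhesion molecule that leukocytes also carry, made up most of the Th17 sum, at 1965 in Th17 against 3801 in ILC3, followed by Pdgfrb at 399.8 in Th17 against 1359 in ILC3. Each of the other 10 markers had a large difference, for example the collagen gene Col3a1 at 2.35 in Th17 against 2159 in ILC3, and Cdh5, Kdr and Tek, which define endothelium, were listed at 0 in Th17. The part of these markers in the Cyp1b1 values was not tested.

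Cyp1a1, the P450 most widely used as a readout of AHR activity, had 1 read in Th17 (1.18 normalized counts) and 15 reads in ILC3 (12.8 normalized counts). The ILC3 value was 10.8-fold the Th17 value, with a counting interval of 1.67 to 457. Neither library came near 100 normalized counts, so no call was possible. The low reads of the ILC3 library were unlike those of the Th17 library. In ILC3, 423 genes had 1 to 4 reads and 1021 had 5 to 14, whereas in Th17 2636 genes had 1 to 4 reads and 1731 had 5 to 14. When the ILC3 reads were counted in groups of 10, an alternative chosen after seeing the data, the interval of the Cyp1a1 ratio widened to 0.753 to 853 and included equal values. Intestinal epithelium is a known site of Cyp1a1 expression, and all 11 epithelium markers with a row were higher in ILC3, with sums of 222 in Th17 against 1299 in ILC3 and Krt20 listed at 0 in Th17. The epithelium markers with a mean of at least 10 had a median log2 ratio of -2.87, beside 0.02 over all 13719 such genes. Their part in the Cyp1a1 difference was not tested.

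**Figure D2:**
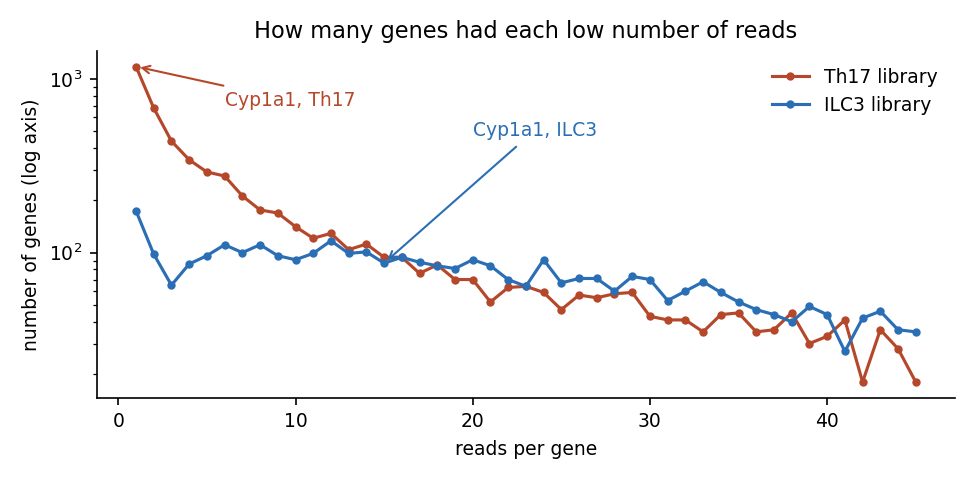
Number of genes (log axis) that had each number of reads from 1 to 45, with the Cyp1a1 reads of each library marked. The Th17 curve falls from 1177 genes at 1 read, whereas the ILC3 curve starts at 174 genes and is nearly flat around the 15 reads of Cyp1a1.

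**Figure D3:**
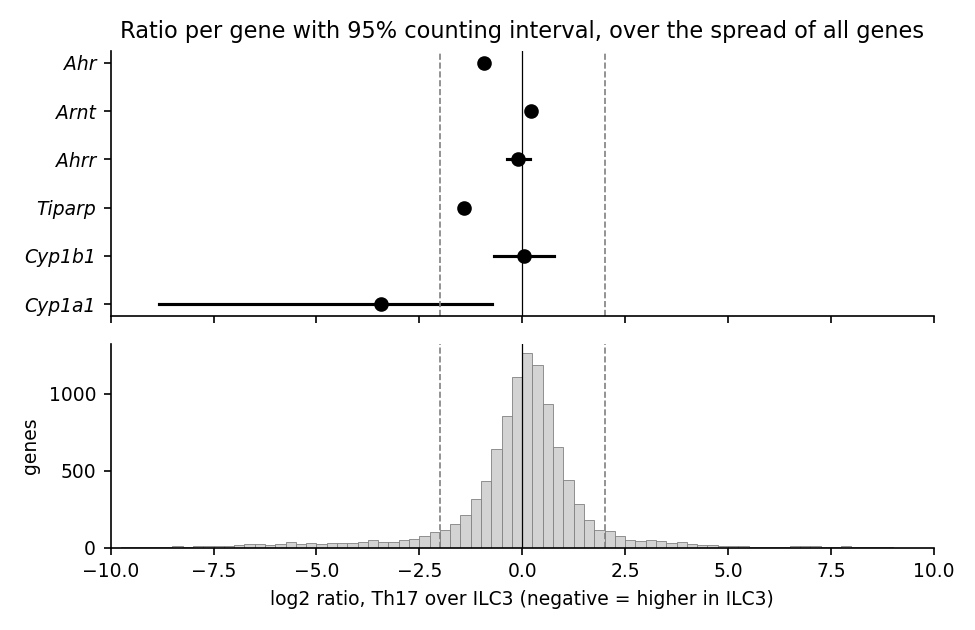
Top, log2 ratio of Th17 over ILC3 of normalized counts for the 6 members with exact 95% counting intervals (lines; smaller than the point for Ahr, Arnt and Tiparp); bottom, the log2 ratios (with 1 added to each value) of the 10431 genes that reached 100 normalized counts. Dashed lines mark a log2 of 2 in either direction, and no member that reached 100 lies beyond them.

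Levels of different genes were compared per kilobase of transcript, using the mean length of the protein-coding transcripts in GENCODE M21. In Th17 the order was Arnt at 998 normalized counts per kilobase, Tiparp at 576, Ahr at 406, Ahrr at 62.3, Cyp1b1 at 8.28 and Cyp1a1 at 0.442. In ILC3 it was Tiparp at 1537, Arnt at 860.3, Ahr at 767, Ahrr at 66.4, Cyp1b1 at 7.98 and Cyp1a1 at 4.80. Receptor, partner and Tiparp thus stood well above Ahrr in both libraries, and the CYP1 genes lay lowest. In ILC3 the counting intervals of Cyp1b1 (5.70 to 10.9) and Cyp1a1 (2.69 to 7.91) overlapped, so they were not told apart by counting error. The place of Arnt relative to Ahr in ILC3 depends on the length used: with the longest transcript Arnt was at 584 per kilobase, below Ahr.

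**Figure D4:**
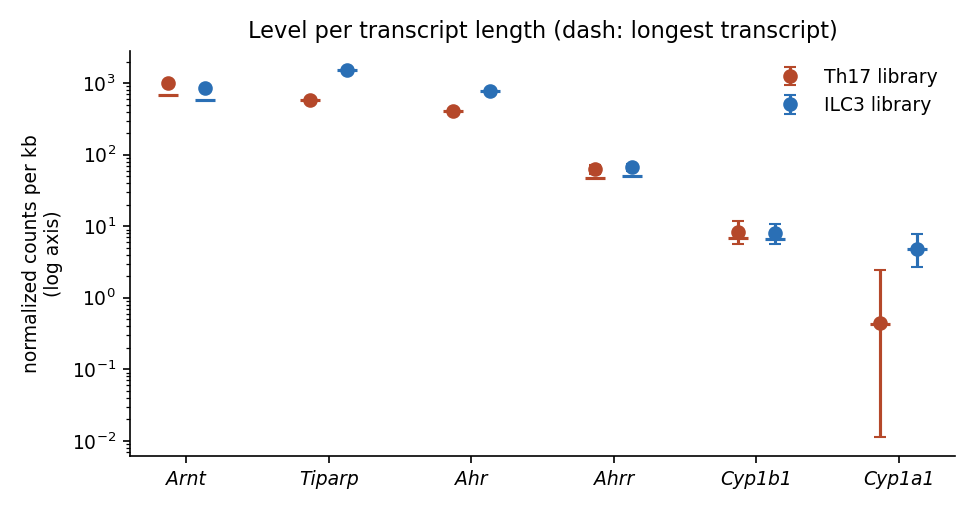
Normalized counts per kilobase of transcript (log axis) for the 6 members in the Th17 library (left of each pair) and the ILC3 library; points use the mean transcript length with 95% counting intervals, and dashes the longest transcript. Tiparp leads in ILC3 at 1537 and Arnt in Th17 at 998, and the CYP1 genes lie lowest in both.

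Genes for the proteins around AHR in the cytosol held no large difference, beside 14.8% of all genes that reached 100. All 4 chaperone genes reached 100 and 0 had a large difference, with a median log2 ratio of -0.28 beside 0.02 over the 13719 genes with a mean of at least 10. Hsp90ab1, which encodes the constitutive HSP90 form, had 46241 normalized counts in Th17 against 58512 in ILC3, 1.27-fold higher in ILC3 (1.25 to 1.28). Hsp90aa1, the inducible form, had 21679 in Th17 against 20455 in ILC3. Ubiquitin ligase parts reported to act on AHR were also without a large difference in 4 of 4 genes, for example Ddb1 at 7675 in Th17 against 5697 in ILC3 and Cul4b at 1135 in Th17 against 929.5 in ILC3 (median 0.36).

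Coregulators likewise had 0 large differences among 13 genes, and a median of 0.08. Ncor1, a corepressor, had 19176 normalized counts in Th17 against 22690 in ILC3. Nrip1, which encodes the corepressor RIP140, had 16417 in Th17 against 20136 in ILC3. The CCCH zinc finger relatives of Tiparp went opposite ways without reaching 4-fold. Zc3hav1, an antiviral factor, was 1.84-fold higher in Th17 (21128 in Th17, 11500 in ILC3), and Parp12 was 1.84-fold higher in ILC3 (305 in Th17, 559.6 in ILC3).

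The other basic helix-loop-helix PAS factors, the family of AHR and ARNT, included 3 large differences. Of 13 listed genes 12 had a row and 6 reached 100. Large differences numbered 2 towards Th17 and 1 towards ILC3, and the list's median was 0.51. The background among all 10431 genes that reached 100 was 14.8%, of which 6.4% lay towards Th17 and 8.39% towards ILC3. Hif1a, the oxygen-regulated factor that also pairs with ARNT, had 21349 normalized counts in Th17 against 3218 in ILC3, 6.63-fold higher in Th17 (6.41 to 6.87). Arnt2, a close relative of Arnt, had 690.2 in Th17 against 58.7 in ILC3, 11.8-fold higher in Th17 (9.15 to 15.3). Npas2, a clock factor, had 91.7 in Th17 against 842 in ILC3, 9.18-fold higher in ILC3 (7.28 to 11.7). Epas1, the other main hypoxia factor, was short of 4-fold at 4341 in Th17 against 11413 in ILC3 (2.63-fold higher in ILC3), as was Arntl at 1843 in Th17 against 2306 in ILC3. Epas1 is also an endothelial gene, and the markers of endothelium given beside Cyp1b1 were higher in ILC3; their part was not tested. Adjusted p-values in the authors' deposited table were 0.195 for Hif1a, 0.439 for Arnt2 and 0.505 for Npas2.

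**Figure D5:**
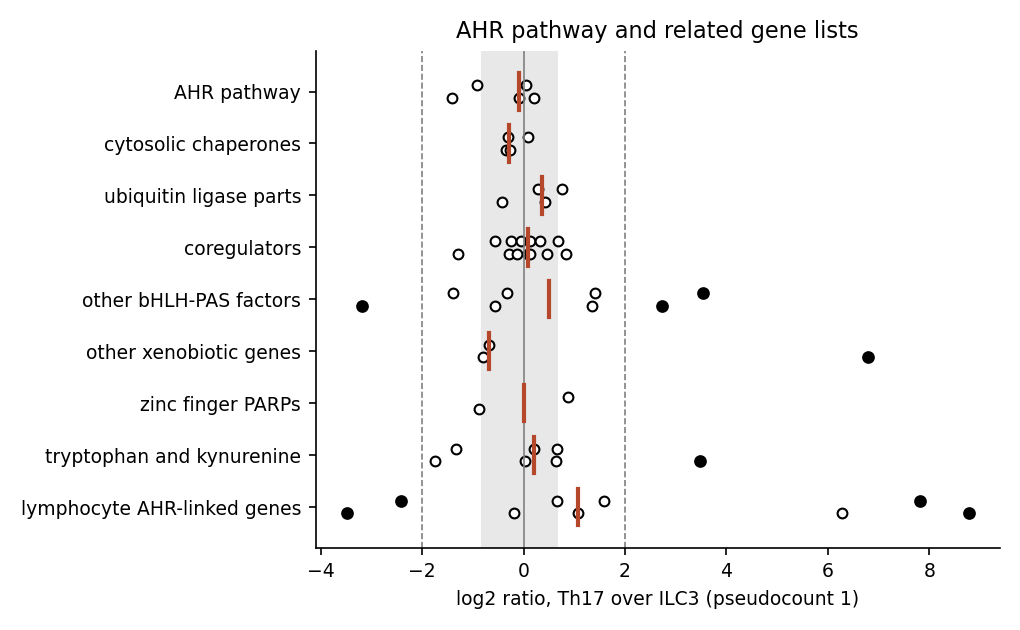
Log2 ratio of Th17 over ILC3 for each gene with a mean of at least 10 normalized counts, by list; filled points are large differences, red bars list medians, dashed lines a log2 of 2 in either direction, and the grey band the middle 50% of all genes, with their median as a line. The AHR pathway, chaperones, ubiquitin ligase parts, coregulators and zinc finger PARPs hold no filled point.

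Of 10 other xenobiotic genes linked to AHR, 4 had a row and 2 reached 100. Cyp2s1, a P450 that AHR ligands can induce, had 111 normalized counts (94 reads) in Th17 but 0 in ILC3. The exact 95% counting interval of the ratio started at 34.5-fold higher in Th17. That limit covers counting error only and makes no allowance for the scarcity of low reads in ILC3 described beside Cyp1a1. Nfe2l2, which encodes the oxidative stress factor NRF2, had 1203 in Th17 against 2089 in ILC3, and Nqo1, a quinone reductase, was low at 11.8 in Th17 against 19.6 in ILC3. Genes of tryptophan breakdown and kynurenine transport, some of which supply AHR ligands, had 9 of 13 members with a row. Ido1, Tdo2, Il4i1 and Aadat had none, and the list's median was 0.21. Of the 5 that reached 100, 1 had a large difference, beside 14.8% of all genes that reached 100. The gene called was Slc7a5, which encodes the amino acid transporter that also carries kynurenine. Slc7a5 was at 2726 in Th17 against 243 in ILC3, 11.2-fold higher in Th17 (9.91 to 12.7). Its partner chain gene Slc3a2 was 1.57-fold higher in Th17, and Afmid, which forms kynurenine, was at 227 in Th17 against 221 in ILC3.

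Genes reported to depend on AHR in lymphocytes went both ways. Of 9 genes, 8 reached 100, and large differences numbered 2 towards Th17 and 2 towards ILC3. The shares over all genes that reached 100 were 6.4% towards Th17 and 8.39% towards ILC3. Il22, a cytokine that acts on epithelium, had 2830 normalized counts in Th17 against 31670 in ILC3, and Kit, the stem cell factor receptor gene, 3963 in Th17 against 21092 in ILC3. Il21 and Il10, which AHR has been linked to in T cells, lay in the other direction, with Il10 at 3121 in Th17 against 12.8 in ILC3 and Il21 at 810.2 in Th17 against 0.85 (1 read) in ILC3. Notch2 and Notch1, receptors linked to AHR in ILC3s, were 3.02-fold and 1.59-fold higher in Th17. The list's median log2 ratio was 1.07. Adjusted p-values in the authors' deposited table were 0.0325 for Il22, 0.368 for Kit, 6.42e-06 for Il10 and 3.73e-04 for Il21.

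Over all 8 lists of related genes, 44 genes reached 100, and large differences numbered 6 towards Th17 and 3 towards ILC3, leaving 35 genes; 20.5% were called, beside 14.8% of all genes that reached 100. Of the same genes, those with a log2 ratio closest to that of Ahr were Parp12 (0.04 away), Nfe2l2 (0.12) and Clock (0.35). With 2 libraries such likeness says only that the ratios are alike.

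The libraries held 17599180 reads for Th17 and 22576436 for ILC3 over listed genes, and their labels were checked on marker genes. All 7 T cell markers had a large difference higher in Th17 (summed 75042 normalized counts in Th17 against 4002 in ILC3), and the 7 ILC3 markers all stood higher in ILC3, by a large difference for 3. Of the T cell markers, Cd4 was at 24589 in Th17 against 2044 in ILC3 and Cd28 at 13219 in Th17 against 458 in ILC3. Cd3e was at 9897 in Th17 against 651 in ILC3. Transcripts of T cell markers were thus present in the ILC3 library, and whether T cells or ILC3s carried them was not tested. B cell markers were higher in ILC3 in 5 of 5 genes with a row (summed 2427 in Th17 against 3356 in ILC3), and myeloid markers in 7 of 11 (1384 in Th17 against 1538 in ILC3). In sorted bulk samples, fewer cells of a type and less RNA per cell cannot be told apart.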

How the data were processed

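RNA sequencing of 1 Th17 and 1 ILC3 library was used as deposited. The submitters' processing notes name the build mm8 and, without settings, DESeq 1.12.0, HTSeq 0.5.4p3 and TopHat2 2.0.6. The authors deposited, per the file headers, a signal column of normalized counts for each library, a fold ratio of Th17 over ILC3, and p-values, raw and adjusted, which rest on 1 library per group and are quoted only as theirs. Of 17048 rows, 24 whose names had become calendar dates were left out.

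Whole reads were recovered by taking each library's lowest value above 0 as 1 read; 100% of values came out whole within 0.001 reads. Totals were 17599180 reads for Th17 and 22576436 for ILC3. With 1 library per group no count model could be fitted; the exact conditional binomial (Clopper-Pearson) 95% interval of the ratio on the recovered reads left out equal values for 12296 genes. That number compares the reads of 2 libraries, not the cell types. Intervals of single levels are exact Poisson, and ratios of ratios use the conditional odds ratio.

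The members, gene lists and thresholds were chosen with earlier results of these data known, and the immediate early list was added after seeing the values. Named genes were the 6 members, from each related list up to 4 with a large difference and the 2 most abundant others, the 2 most abundant of each marker list, and the 3 nearest to Ahr in log2 ratio; some are given only in sums. List medians use genes with a mean of at least 10 normalized counts and were the same for the lists of related genes with genes at 0 set to a floor of 3 reads. Older gene symbols and promoter sequences came from RefSeq tables (GRCm38.p6), transcript lengths and overlaps from GENCODE M21. The calculations were tested on simulated data. Software was matplotlib 3.10.9, scipy 1.17.1, pandas 2.3.3, numpy 2.4.6 and Python 3.11.15.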

Additional observations from a re-analysis of the deposited data

How the results depend on the processing

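Scaling by total reads shifted the median log2 ratio of genes that reached 100 by -0.11, and gave -1.02 for Ahr, -1.52 for Tiparp and 0.11 for Arnt. Centring on 148 constitutive genes (mitochondrial ribosome, proteasome and respiratory complex I) subtracted 0.46 and gave -1.37 for Ahr, -1.87 for Tiparp, -0.55 for Ahrr and, with the direction turned, -0.24 for Arnt. Both settings move all ratios by nearly the same amount. The number of members with a large difference was 0 under every scaling and pseudocount and at a minimum of 30; it was 1 with no minimum (Cyp1a1) and 1 at a 2-fold threshold (Tiparp). Among the lists, large differences numbered 10 higher in Th17 and 5 higher in ILC3 with no minimum. At 2-fold they numbered 8 higher in Th17 and 6 higher in ILC3 of the 44 genes that reached 100. Of all genes that reached 100, 16% were called higher in ILC3 at 2-fold. The matching shares of all genes towards Th17 at 2-fold, and with no minimum, were not computed. With the longest transcript, the mean level over both libraries became 630.3 normalized counts per kilobase for Arnt and 48.5 for Ahrr. No paired analysis was possible because each group held 1 library. Depth limits Cyp1a1 and Cyp1b1, whose intervals are wide.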
